A study of Mus musculus with 203 samples.

Results

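The 9 genes described here are the surfactant and alveolar type II genes Sftpa1, Sftpb, Sftpc, Sftpd, Abca3, Lamp3, Napsa, Slc34a2 and Etv5, taken by symbol from the 43346 gene rows of a table of estimated read counts. RNA was sequenced from the airway and the parenchyma of female Balb/C mice, which the labels put at 18 to 20 weeks of age, and the table holds 20 groups of libraries. At 3 weeks, mice had received intranasal house dust mite extract (HDM) on 5 days a week or phosphate buffered saline (PBS), with 11 PBS and 10 HDM libraries of airway and 12 PBS and 10 HDM libraries of parenchyma. At 11 weeks, each tissue had 10 libraries of each of 8 groups, named PBS.AIR, HDM.AIR, PBS.CS and HDM.CS and the same 4 with DEX. In those names HDM was given 3 times a week in weeks 4 to 11, CS was cigarette smoke 2 times a day on 5 days a week for 8 weeks against normal air (AIR), and DEX was dexamethasone in week 11. The wording of the labels is read here as a course on 5 days a week in weeks 1 to 3 that these HDM mice continued at the lower rate, although it is not stated outright. The labels give the strain and no engineered allele, the tissues were parted by blunt dissection, and the library codes do not tie an airway library to the parenchyma of the same mouse. The labels do not name the mouse behind each library, so p-values measure the spread between libraries.

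Alveolar type II cells are the cuboidal cells of the alveolus that make, store and recycle pulmonary surfactant, the film of phospholipid and protein that keeps the alveoli open. Surfactant is assembled in lamellar bodies, where lipid pumped in by a transporter is packed with small hydrophobic peptides cut from larger precursors, while the large collagen-like lectins of surfactant leave the cell by another path and bind microbes and allergens. Among the 9 genes, Sftpa1 and Sftpd encode these lectins (SP-A and SP-D), Sftpb and Sftpc the hydrophobic peptides (SP-B and SP-C), Napsa a protease that helps to cut the SP-B precursor, Abca3 the lipid transporter of the lamellar body, Lamp3 a protein of the lamellar body membrane, Slc34a2 a sodium and phosphate cotransporter of the apical membrane and Etv5 a transcription factor that acts below FGF receptors and helps to keep type II identity. Club cells of the small airways also make SP-A, SP-B and SP-D, whereas Sftpc is the gene most restricted to type II cells.

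In mm10 coordinates of the GENCODE M21 annotation, Sftpa1 lies at chr14:41131782-41136452 on the plus strand and Sftpd at chr14:41172214-41185149 on the minus strand, so that the lectin genes are 35761 bases apart. Sftpc is on the same chromosome at chr14:70520949-70524081 (minus), Sftpb at chr6:72304610-72314371 (plus), Napsa at chr7:44572380-44586862 (plus), Abca3 at chr17:24351950-24410201 (plus), Slc34a2 at chr5:53038081-53071664 (plus), and Lamp3 and Etv5 share a chromosome, at chr16:19653378-19706375 (minus) and chr16:22381309-22439719 (minus). All 9 are protein-coding, and each value covers the exons of the whole gene. Abca3 overlaps D330041H03Rik and Gm25618, and Slc34a2 overlaps Gm17182, each on the opposite strand, and without a stated strand setting the reads of such pairs cannot be told apart.

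Upstream sequences are shown for 3 genes, 5′ to 3′ on the strand of the gene, as examples of a lectin gene, a hydrophobic peptide gene and a lamellar body gene. They come from RefSeq on GRCm38.p6, which has the mm10 coordinates, and each holds the 250 bases before the RefSeq start: Sftpa1 at chr14:41131538-41131787 (plus), Sftpb at chr6:72304360-72304609 (plus) and Lamp3 at chr16:19706366-19706615 (minus). Capitals mark matches to 5 motifs searched on both strands.
Sftpa1: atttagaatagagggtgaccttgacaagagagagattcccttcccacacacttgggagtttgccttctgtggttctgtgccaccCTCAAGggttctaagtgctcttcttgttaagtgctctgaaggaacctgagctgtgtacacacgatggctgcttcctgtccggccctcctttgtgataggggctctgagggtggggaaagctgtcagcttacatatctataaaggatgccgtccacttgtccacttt
Sftpb: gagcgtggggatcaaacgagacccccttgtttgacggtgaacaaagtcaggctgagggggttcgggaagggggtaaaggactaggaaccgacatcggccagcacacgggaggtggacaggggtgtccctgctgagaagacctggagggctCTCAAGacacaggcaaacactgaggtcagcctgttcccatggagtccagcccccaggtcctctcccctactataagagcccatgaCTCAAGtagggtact
Lamp3: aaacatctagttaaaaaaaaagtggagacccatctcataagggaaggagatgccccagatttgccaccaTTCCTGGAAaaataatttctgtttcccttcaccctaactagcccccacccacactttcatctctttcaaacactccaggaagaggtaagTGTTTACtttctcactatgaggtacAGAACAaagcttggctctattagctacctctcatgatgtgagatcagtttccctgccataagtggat
The motifs were CTCAAG (known for NKX2-1), TGTTTAC (FOXA), TTGCNNAA (C/EBP), TGTTCT (an arm of the glucocorticoid receptor site) and TTCNNNGAA (STAT). Counting back from the transcript start, Sftpa1 held CTCAAG at -166 to -161 and Sftpb held it at -100 to -95 and again at -15 to -10, a motif present in 13.3% of all 32851 mouse promoter windows of the same 250 bases. Lamp3 held TTCNNNGAA at -181 to -173 (7.02% of promoters), TGTTTAC at -92 to -86 (3.17%) and TGTTCT, read on the other strand as AGAACA, at -67 to -62 (16.1%). Of the 6 genes with a window in the table, Slc34a2 held TTGCNNAA at -48 to -41 (9.56%), Etv5 held TGTTTAC at -183 to -177 in 1 of its 2 windows, and Abca3 held no match to the 5 motifs. These are matches of letters, not binding sites, and their part in the results below was not tested. Of the 2 lamellar body genes, Abca3 passed as higher in 7 of 8 dexamethasone comparisons and Lamp3 in 4.

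The libraries held 13003087 to 40240680 counts (median 28090612), and every one of the 9 genes was well counted in every library, from a lowest count of 588 for Etv5 to a highest of 747036 for Sftpc. All 9 passed the filter on low counts. A group of 10 libraries stood apart, by a low total count or a correlation under 0.97 with the mean of their group, and results that change without them are given beside the values. The smooth muscle gene Cnn1 was higher in 98 of 101 airway libraries than in any parenchyma library, while the alveolar type I gene Ager was present in every airway library, at a median of 1320 CPM against 2275 CPM in parenchyma, so the airway samples also held alveolar tissue. Levels are in CPM, the count of a gene over the size of its library on a common scale, with library sizes corrected by the trimmed mean of M values (TMM), and in whole tissue fewer type II cells and less RNA per cell cannot be told apart.

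The 9 genes together took a large share of the RNA. In PBS parenchyma at 3 weeks they held 1.89 to 2.97% of all counts (median 2.62%), and in PBS airway 0.529 to 2.22% (median 1.91%). Per kilobase of exon, the scale on which genes can be compared with each other, the order of the mean levels was Sftpc, Sftpa1, Sftpb, Sftpd, Slc34a2, Lamp3, Napsa, Abca3 and Etv5 in 16 of the 20 groups. In PBS parenchyma at 3 weeks the mean RPKM was 18845 ± 2984 (SD, n = 12) for Sftpc, 1391 ± 267 for Sftpa1, 849.3 ± 158.4 for Sftpb and 493.2 ± 68.5 for Sftpd. Further down the same group, mean RPKM was 276 ± 25.3 for Slc34a2, 194.7 ± 33.4 for Lamp3, 115.5 ± 28.1 for Napsa, 32.3 ± 2.92 for Abca3 and 30.2 ± 3.45 for Etv5. The 4 groups with another order were the HDM groups at 3 weeks and the HDM.AIR groups at 11 weeks, in each tissue, where Sftpd stood above Sftpb.

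Across the 20 groups the mean level of each gene varied 2.97-fold (Etv5) to 4.88-fold (Sftpb). There were 6 genes (Sftpa1, Sftpd, Abca3, Lamp3, Slc34a2 and Etv5) that were lowest in PBS.AIR airway at 11 weeks, while Sftpb and Sftpc were lowest in HDM airway at 3 weeks, and Napsa in PBS airway at 3 weeks. The other extreme was PBS.CS.DEX parenchyma at 11 weeks, where 7 genes were highest, while Sftpc was highest in PBS.AIR.DEX parenchyma and Sftpd in HDM parenchyma at 3 weeks. Between neighbours in these orders the means differed by less than the larger of the 2 standard deviations in all 19 pairs of each gene, except for 1 pair of Napsa. The plot of levels by library shows this for every gene, with the dexamethasone groups of the parenchyma at the top for Sftpb and Napsa and control groups at the bottom for Sftpd.

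**Figure D1:**
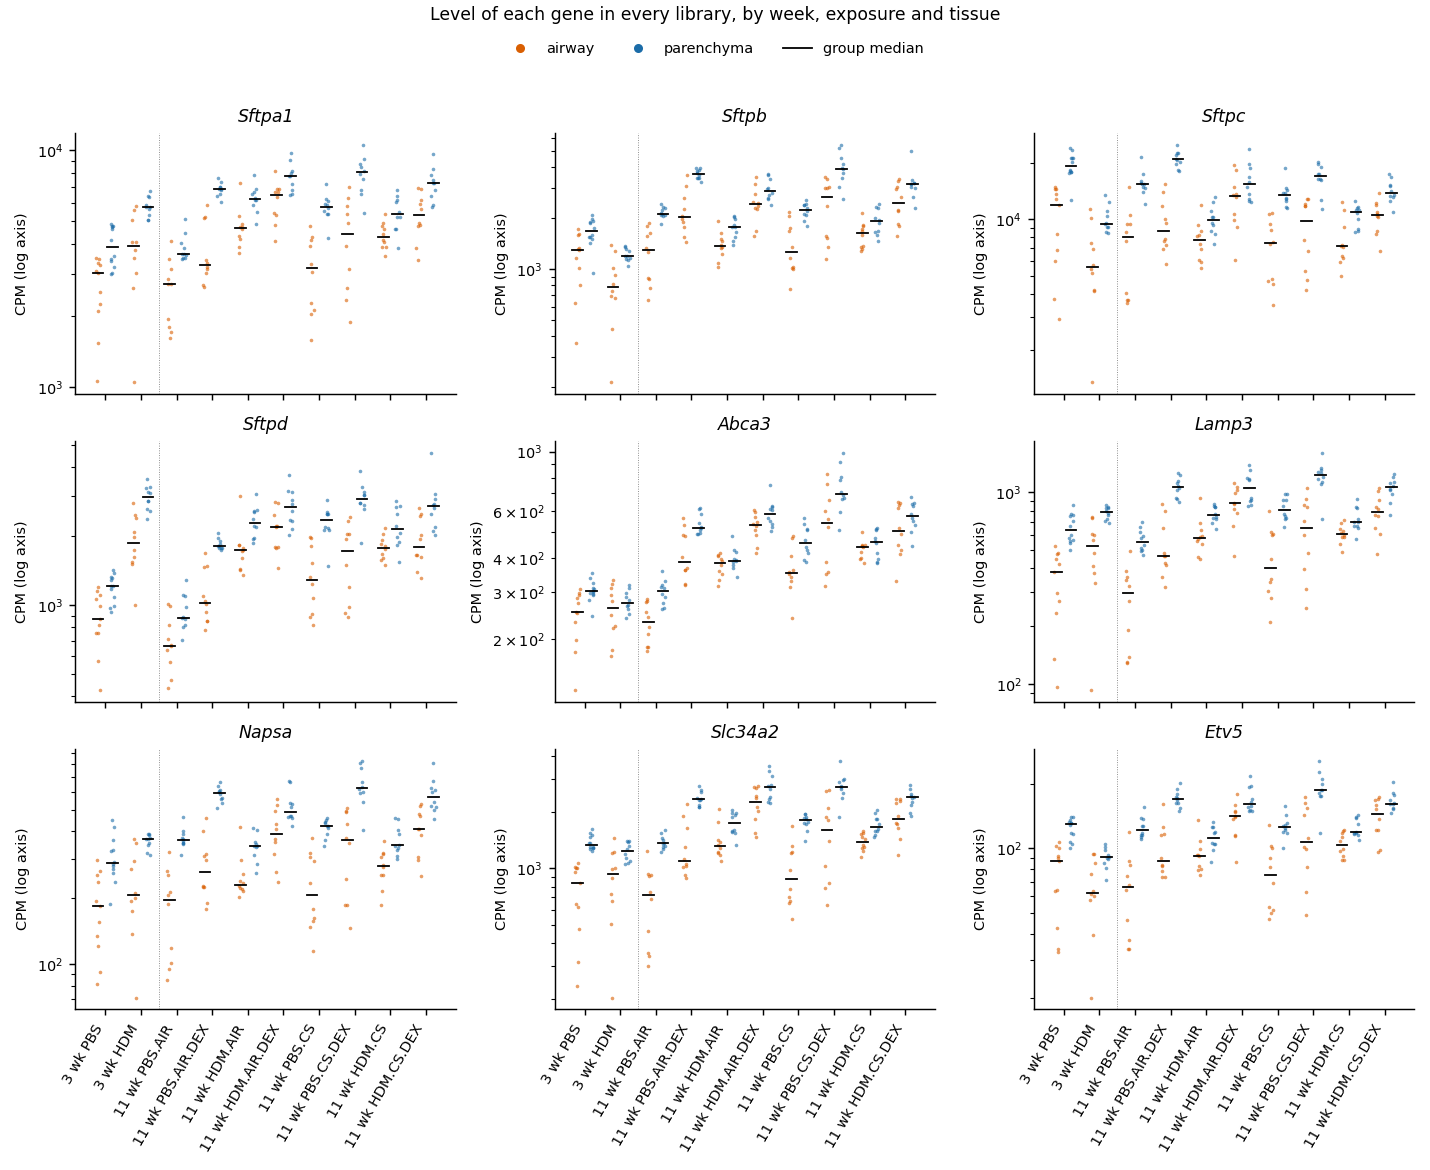
Each point is 1 library, with its CPM on a log axis, for each of the 9 genes; groups run along the horizontal axis by week and exposure, colours mark airway and parenchyma, and the black line is the group median. Sftpd is low in the groups without HDM, smoke or dexamethasone, with medians of 665 to 1209 CPM, and Sftpc is low in HDM-exposed parenchyma at 3 weeks, with a median of 9491 CPM against 19286 CPM in PBS.

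The first comparison asked how the genes differed between the tissues of control mice. In PBS mice at 3 weeks Slc34a2 was at 1245, 1334 and 1623 CPM (lowest, median and highest) in parenchyma and at 234, 838 and 1066 CPM in airway. All 12 parenchyma libraries were above all 11 airway libraries for this transporter gene, the only 1 of the 9 without overlap, where 2.40% of all genes tested were higher without overlap. Sftpc ran from 12652 to 23933 CPM (median 19286) in parenchyma and from 2940 to 14832 CPM (median 11893) in airway, with 11 of 12 parenchyma libraries above every airway library. All 9 genes passed the limma-voom test as higher in parenchyma, where 31.7% of the 17381 genes tested did so. Their log2 fold changes ran from 0.32 ± 0.11 (SE; Abca3, adjusted p = 0.0083) to 1.10 ± 0.25 (Sftpc, adjusted p = 3.1e-04), and their median was 0.81 beside 0.05 for all genes. Without library X81 (PBS airway) Sftpb fell short of the threshold, at a log2 fold change of 0.44 (adjusted p = 0.061).

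In PBS.AIR mice at 11 weeks all 9 genes were again higher in parenchyma by the limma-voom test (30.1% of 18250 genes), with a median log2 fold change of 1.04 beside 0.03 for all genes. The largest differences were in Sftpc (1.19 ± 0.18, adjusted p = 7.1e-09), Lamp3 (1.14 ± 0.17, adjusted p = 1.3e-09), Slc34a2 (1.13 ± 0.16, adjusted p = 6.6e-10) and Napsa (1.12 ± 0.17, adjusted p = 2.6e-09), and the smallest were in Sftpd (0.43 ± 0.14) and Abca3 (0.35 ± 0.10). Markers of the other alveolar cell type moved the same way: all 15 alveolar type I markers were higher in parenchyma at both weeks, with a summed level of 11115 to 12706 CPM in PBS.AIR parenchyma and 2355 to 7821 CPM in airway. All 10 markers of airway smooth muscle and cartilage were lower in parenchyma (184.6 to 273.0 summed CPM against 511.4 to 1833). The plot of the share of counts against type I markers shows the airway libraries spread from few to many reads of both kinds. The part of tissue make-up in the differences was not tested.

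**Figure D2:**
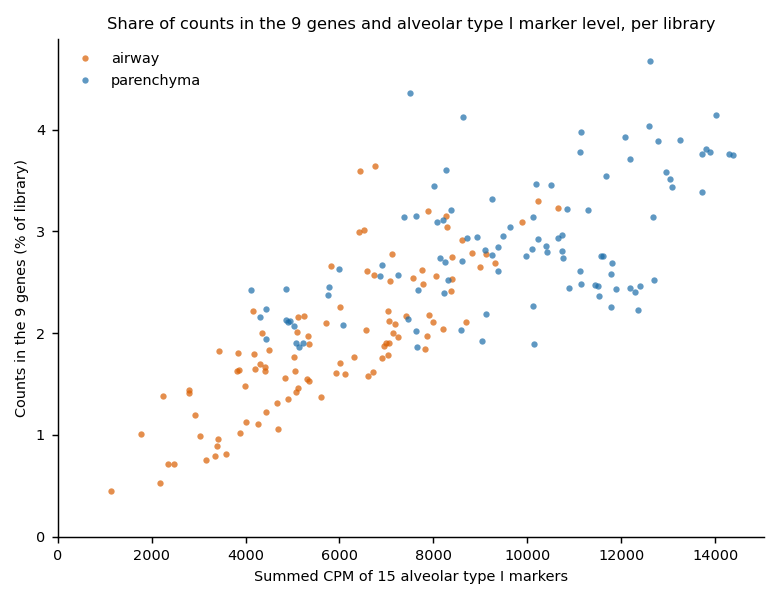
Each point is 1 library, with the summed CPM of 15 alveolar type I markers on the horizontal axis and the percent of its counts in the 9 genes on the vertical axis, coloured by tissue. Airway libraries spread from low to high on both axes, and in HDM-exposed parenchyma at 3 weeks the type I markers had a median of 4928 CPM against 10694 CPM in PBS and the 9 genes a median of 2.12% of counts against 2.62%.

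After the 3 week course of HDM the lectin genes Sftpa1 and Sftpd were higher and the hydrophobic peptide genes Sftpb and Sftpc lower, in both tissues. Sftpd in parenchyma was at 937, 1209 and 1421 CPM in PBS and at 2377, 2978 and 3557 CPM in HDM-exposed mice. No HDM library overlapped the PBS range. The log2 fold change was 1.25 ± 0.14 (2.39-fold, limma-voom adjusted p = 2.0e-10). Sftpa1, the other lectin gene, was at 3010, 3884 and 4895 CPM in PBS and at 5063, 5735 and 6727 CPM in HDM parenchyma. Again the ranges did not overlap, although the fold was smaller, at a log2 fold change of 0.50 ± 0.20 (1.41-fold, adjusted p = 0.020). These 2 of the 9 genes rose in parenchyma, where 33.4% of all genes tested rose and 20.3% rose without overlap.

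The hydrophobic peptide genes fell. Sftpc in parenchyma was at 12652, 19286 and 23933 CPM in PBS and at 8403, 9491 and 13467 CPM in HDM-exposed mice. Of the 10 HDM libraries 9 lay below every PBS library, with a log2 fold change of -1.01 ± 0.26 (2.01-fold lower, limma-voom adjusted p = 6.3e-04). Sftpb was at 945, 1669 and 2096 CPM in PBS and at 1046, 1190 and 1376 CPM with HDM. Here every HDM library lay within the PBS range, and the log2 fold change was -0.50 ± 0.22 (adjusted p = 0.040), which did not pass with DESeq2 size factors (-0.41, adjusted p = 0.093), with no filter (-0.38, adjusted p = 0.13) or with a filter at 10 CPM (-0.42, adjusted p = 0.081). The transcription factor gene Etv5 also fell, from 100, 129.9 and 140.8 CPM in PBS to 71.2, 90.9 and 105.2 CPM with HDM (-0.51 ± 0.19, adjusted p = 0.016), with 8 of 10 HDM libraries below every PBS library, and did not pass with no filter (-0.40, adjusted p = 0.066). In all, 3 of the 9 fell in parenchyma, where 44.3% of all genes tested did. Abca3 (-0.19 ± 0.11), Lamp3 (0.21 ± 0.25), Napsa (0.20 ± 0.21) and Slc34a2 (-0.23 ± 0.23) did not pass, and the median over the 9 was -0.19 beside -0.13 for all genes. Abca3 passed as lower when the libraries that stood apart were left out (-0.19, adjusted p = 0.038) and with sample quality weights (-0.21, adjusted p = 0.011). In a fit of the parenchyma libraries alone Lamp3 (0.31, adjusted p = 0.0012) and Napsa (0.31, adjusted p = 0.014) passed as higher.

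In airway the same 4 surfactant protein genes passed the limma-voom test. Sftpd was at 427, 871 and 1196 CPM in PBS and at 1005, 1862 and 2799 CPM with HDM, 9 of 10 HDM libraries being above every PBS library (1.09 ± 0.14, adjusted p = 7.7e-09). Sftpa1 rose by 0.46 ± 0.19 (adjusted p = 0.032), Sftpb fell by 0.59 on the log2 scale (SE 0.22, adjusted p = 0.016) and Sftpc fell by 0.74 (SE 0.25, adjusted p = 0.0081), with overlapping ranges for all 3. Lamp3 (0.48 ± 0.25, adjusted p = 0.075), Napsa (0.25 ± 0.21), Slc34a2 (0.20 ± 0.23), Abca3 (0.04 ± 0.11) and Etv5 (-0.22 ± 0.20) did not pass. Thus 2 of 9 rose and 2 fell, where 34.1% of all genes rose and 40.5% fell, and the median was 0.20 beside -0.07 for all genes. The HDM airway library X63 was the lowest of its group for all 9 genes and held 0.446% of its counts in them. Without it Lamp3 (0.75, adjusted p = 8.1e-04), Napsa (0.45, adjusted p = 0.025) and Slc34a2 (0.44, adjusted p = 0.035) also passed as higher, making 5 higher and 1 lower, and Sftpb (-0.37, adjusted p = 0.067) did not pass. Lamp3 also passed when all libraries that stood apart were left out (0.56, adjusted p = 0.0029). Without the PBS library X81, Sftpa1 (0.34, adjusted p = 0.087) did not pass. In a fit of the airway libraries alone Sftpa1 (0.51, adjusted p = 0.068), Sftpb (-0.53, adjusted p = 0.10) and Sftpc (-0.68, adjusted p = 0.072) did not pass, and Sftpd was the member that did.

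The HDM effect at 3 weeks was then compared between the tissues. None of the 9 genes differed by limma-voom, by edgeR or by DESeq2, and none had an unadjusted p under 0.05, where 6.44% of all genes had a more positive and 10.8% a more negative effect in parenchyma. The interval of the difference (parenchyma less airway, 95%, log2) ran from -0.24 to 0.57 for Sftpd and from -0.996 to 0.469 for Sftpc.

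Genes of the wider surfactant pathway are set beside these from fixed lists, for HDM parenchyma at 3 weeks. There 33.4% of all genes tested rose and 44.3% fell. Of 12 genes of FGF signalling around Etv5, 11 fell and 1 rose in HDM parenchyma, among them the ligand gene Fgf7 (-1.63 ± 0.11, limma-voom adjusted p = 2.7e-17), the receptor gene Fgfr3 (-1.58 ± 0.11) and the inhibitor gene Spry2 (-1.43 ± 0.11), and the median over the list was -0.73. Of 14 alveolar epithelial transcription factors 9 fell and 1 rose, with Foxp2 at -2.68 ± 0.22, Nfib at -2.47 ± 0.13 and Gata6 at -1.40 ± 0.08. Of 10 genes of surfactant processing and sensing 5 rose and 4 fell, including Adgrg6 (-1.79 ± 0.12), the phospholipase gene Prdx6 (-1.54 ± 0.08) and Adgrf5 (-1.29 ± 0.16), a receptor that restrains the surfactant pool. Of 20 genes of phospholipid synthesis 8 rose and 7 fell, with the fatty acid binding protein gene Fabp5 at 1.62 ± 0.16 and the choline phosphotransferase gene Chpt1 at -1.24 ± 0.10.

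In the list of surfactant clearance and GM-CSF signalling 8 of 10 genes passed as higher and none as lower by limma-voom. The largest rises were in the receptor genes Csf2rb (3.26 ± 0.17) and Csf2rb2 (3.26 ± 0.19), near-identical copies between which reads may be split, and in Spi1 (2.56 ± 0.17). Of 10 alveolar macrophage markers 3 rose and 1 fell, while all 9 granulocyte markers tested rose. Of 15 other type II markers 6 rose and 3 fell, with Lcn2 (4.10 ± 0.21) and Cd74 (2.69 ± 0.16), which leukocytes also express, at the top and Acoxl (-2.46 ± 0.35) at the bottom. Markers of other cell types moved with the exposure. In parenchyma 13 of 15 alveolar type I markers fell, and their summed level went from 8710 to 12303 CPM in PBS to 4116 to 5230 CPM with HDM, with no overlap. All 10 macrophage and monocyte markers rose, from 411 to 530 CPM in sum to 1714 to 2178 CPM, and all 10 lymphocyte markers rose, from 174.5 to 394.9 CPM to 1126 to 2815 CPM. Club cell markers, of interest because these cells also express the lectin genes and Sftpb, fell for 8 of 10, from 26364 to 60295 CPM to 13262 to 21941 CPM. The part of these changes in the members' changes was not tested.

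Because every library gives the members side by side, the ratio of 2 members within a library does not depend on its depth. The log2 ratio of Sftpd to Sftpc in RPKM was -5.25 ± 0.18 (SD, n = 12; range -5.50 to -4.90) in PBS parenchyma at 3 weeks and -3.00 ± 0.21 (n = 10; range -3.27 to -2.58) with HDM. These ranges did not overlap, nor did those of Sftpd to Sftpb, at -0.77 ± 0.24 and 0.98 ± 0.17. Sftpa1 to Sftpb went from 0.71 ± 0.22 to 1.71 ± 0.17. In airway the ratio of Sftpd to Sftpc was -4.61 ± 0.44 in PBS and -2.78 ± 0.47 with HDM, with ranges of -5.28 to -3.95 and -3.46 to -1.65. The airway values were more spread, but they too did not overlap, and the highest of them was that of X63. At 11 weeks in parenchyma the ratio of Sftpd to Sftpc was -5.29 ± 0.21 in PBS.AIR, -3.33 ± 0.30 in HDM.AIR, -3.81 ± 0.20 in PBS.CS and -3.48 ± 0.14 in HDM.CS (n = 10 each). These values describe the libraries, and no test was made on the ratios.

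**Figure D3:**
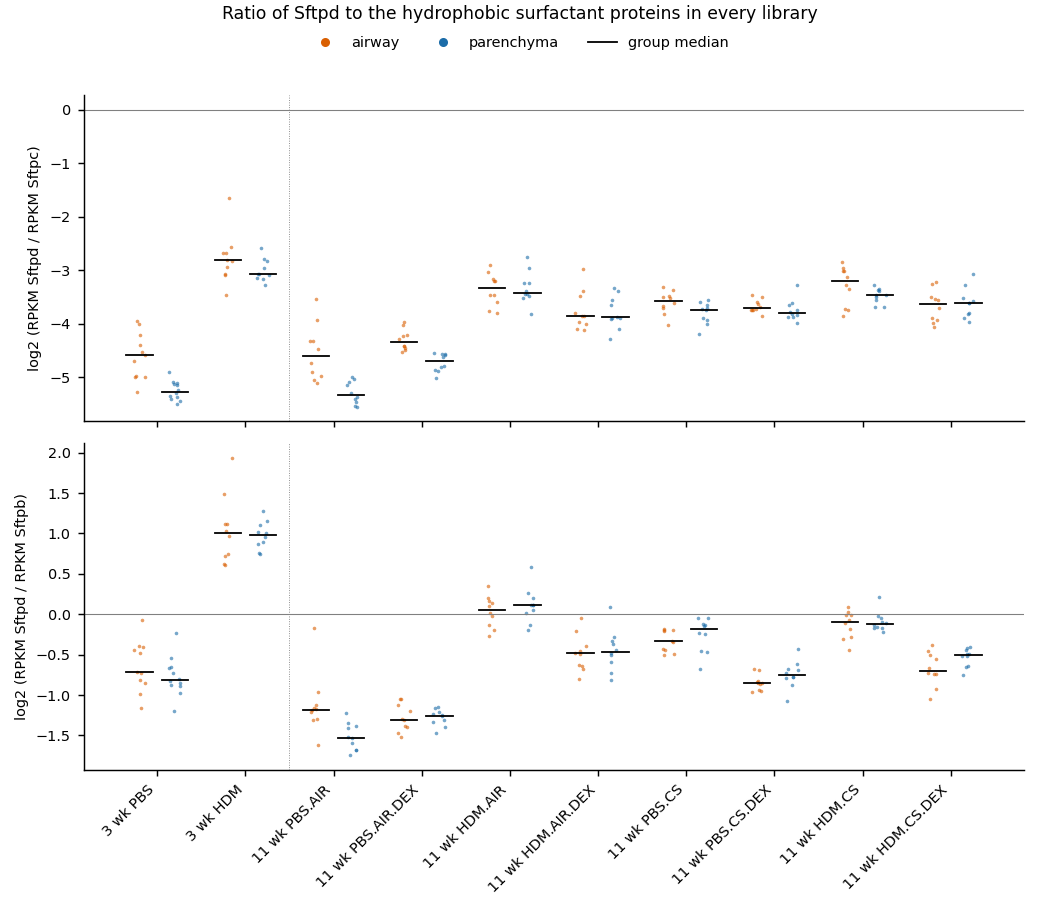
Each point is 1 library; the upper panel gives the log2 ratio of the RPKM of Sftpd to that of Sftpc and the lower panel to that of Sftpb, by week and exposure, coloured by tissue with group medians as lines. Among the parenchyma groups without dexamethasone, PBS at 3 weeks and PBS.AIR lie lowest. Every HDM or smoke group without dexamethasone lies above them, for example at -3.00 against -5.25 in the upper panel at 3 weeks.

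At 11 weeks the HDM effect in air-breathing mice was taken first in airway, where 7 of the 9 genes rose. Sftpd was at 433, 665 and 1006 CPM in PBS.AIR and at 1354, 1731 and 2991 CPM in HDM.AIR. Abca3, the lipid transporter gene, was at 180.9, 231.5 and 281.7 CPM and at 316, 385 and 419 CPM. For both genes all 10 HDM.AIR libraries were above all PBS.AIR libraries, 2 of 9 where 10.5% of all genes were higher without overlap, with log2 fold changes of 1.39 ± 0.14 for Sftpd (limma-voom adjusted p = 2.1e-16) and 0.74 ± 0.10 for Abca3 (adjusted p = 1.7e-10). Lamp3 rose by 1.27 ± 0.17, from a median of 296 CPM (128.9 to 490.0) to 576 CPM (449 to 934), and Slc34a2 by 1.18 ± 0.16, from 719 CPM (300.4 to 1247) to 1315 CPM (1095 to 2078). The ranges of both genes overlapped in part, with 8 and 6 of the 10 HDM.AIR libraries above all PBS.AIR libraries. Sftpa1 (0.94 ± 0.15), Etv5 (0.66 ± 0.15) and Napsa (0.59 ± 0.16) rose as well, and 31.3% of all genes did, and Sftpb (0.24 ± 0.15) and Sftpc (0.22 ± 0.18) did not pass.

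In parenchyma at 11 weeks the lectin genes and the lamellar body genes rose and Sftpc fell. Sftpd was at 705, 881 and 1282 CPM in PBS.AIR and at 1861, 2293 and 3061 CPM in HDM.AIR. The ranges did not overlap (1.37 ± 0.15, limma-voom adjusted p = 1.8e-15), which held for no other member and for 11.8% of all genes in the higher direction. Sftpa1 (0.75 ± 0.15, adjusted p = 6.1e-06), Lamp3 (0.51 ± 0.18, adjusted p = 0.0082), Abca3 (0.48 ± 0.10, adjusted p = 2.9e-05) and Slc34a2 (0.39 ± 0.17, adjusted p = 0.041) also rose. Sftpc was at 12008, 15524 and 21588 CPM in PBS.AIR and at 7380, 9941 and 13177 CPM in HDM.AIR. Of the 10 HDM.AIR libraries 8 lay below every PBS.AIR library (-0.59 ± 0.19, adjusted p = 0.0039). In all 5 of 9 rose (32.6% of all genes) and 1 fell (26.9%), while Sftpb (-0.25 ± 0.15), Napsa (-0.08 ± 0.17) and Etv5 (-0.11 ± 0.15) did not pass. Without library X70 the rise of Slc34a2 did not pass (0.35, adjusted p = 0.073), nor did it with all libraries in 1 fit (0.32, adjusted p = 0.14). In a fit of the parenchyma libraries alone Sftpb passed as lower (-0.27, adjusted p = 0.0094).

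The difference between the tissues at 11 weeks was tested directly. There were 5 genes with a lower HDM effect in parenchyma than in airway by limma-voom (12.7% of all genes): Sftpc (-0.81 ± 0.26, adjusted p = 0.011), Slc34a2 (-0.79 ± 0.23, adjusted p = 0.0066), Etv5 (-0.77 ± 0.21, adjusted p = 0.0028), Lamp3 (-0.76 ± 0.24, adjusted p = 0.012) and Napsa (-0.67 ± 0.24, adjusted p = 0.024). Sftpd did not differ past the threshold (-0.02, 95% interval -0.42 to 0.39), and neither did Sftpb (-0.49 ± 0.21, adjusted p = 0.070), Abca3 (-0.27 ± 0.15) or Sftpa1 (-0.19 ± 0.21). None of the 5 passed when the libraries that stood apart were left out, with values of -0.36 to -0.57 (adjusted p from 0.062 for Etv5 to 0.31 for Napsa), and 1 passed with sample quality weights. Napsa alone did not pass without library X5 (-0.57, adjusted p = 0.067), without X109 (-0.59, adjusted p = 0.054), by edgeR (-0.55, adjusted p = 0.068) or by DESeq2 (-0.54, adjusted p = 0.062). In airway, HDM.AIR libraries also held less of the markers of airway smooth muscle and cartilage (183.1 to 567.5 CPM in sum against 511.4 to 1833 in PBS.AIR; 10 of 10 fell), and 3 of 15 type I markers rose and 5 fell there, against 1 and 13 in parenchyma. The part of tissue make-up in this difference was not tested.

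Set against the 3 week course, the HDM effect of the airway was higher at 11 weeks for 6 genes in the limma-voom fit over the libraries of both weeks (14.5% of 18528 genes). These were Slc34a2 (0.92 ± 0.25, adjusted p = 0.0030), Sftpc (0.90 ± 0.28, adjusted p = 0.0083), Etv5 (0.82 ± 0.22, adjusted p = 0.0027), Sftpb (0.77 ± 0.24, adjusted p = 0.0081), Lamp3 (0.73 ± 0.27, adjusted p = 0.028; 0.48 and 0.12 without the libraries that stood apart) and Abca3 (0.64 ± 0.15, adjusted p = 3.2e-04). In a fit of the airway libraries alone Sftpb (adjusted p = 0.052), Sftpc (adjusted p = 0.058) and Lamp3 (adjusted p = 0.12) did not pass. In parenchyma 1 gene did so (21.5% of genes), Abca3 at 0.55 ± 0.15 (adjusted p = 0.0012), while Slc34a2 (0.49 ± 0.26, adjusted p = 0.12) passed without the libraries that stood apart (0.58, adjusted p = 0.035). The difference for Sftpd in parenchyma was -0.01 with a 95% interval of -0.41 to 0.40. The schedules, the time points and any batch of library preparation differed together between the weeks and cannot be told apart.

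Of all genes tested at 11 weeks 31.3% rose in HDM.AIR airway, and 32.6% rose and 26.9% fell in parenchyma. The share that fell in airway is not given here. In the lists at 11 weeks, 12 of 15 other type II markers rose in HDM.AIR airway and none fell, and 9 rose and 1 fell in parenchyma by limma-voom. Lcn2, an iron-binding innate defence protein (3.99 ± 0.24 in airway, 4.09 ± 0.24 in parenchyma), and Chil1, a chitinase-like protein (2.13 ± 0.17 and 2.09 ± 0.17), led in both tissues. Of the FGF list 10 of 12 fell in parenchyma, among them Fgf7 (-1.22 ± 0.11), while Etv4, a relative of Etv5, rose (1.07 ± 0.29). Of the alveolar transcription factors 9 of 14 fell in airway and 7 in parenchyma, led by Foxp2 at -1.09 ± 0.11 and -1.15 ± 0.13. Fabp5 was again the largest rise of the phospholipid list in parenchyma (1.60 ± 0.18), and Csf2rb the largest of the GM-CSF list (2.61 ± 0.14 and 2.35 ± 0.14). Summed lymphocyte markers were 2492 to 11994 CPM in HDM.AIR parenchyma and 105.1 to 343.3 CPM in PBS.AIR, with all 10 markers higher.

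After 8 weeks of cigarette smoke 4 of the 9 genes were higher in each tissue, Sftpd, Abca3 and Lamp3 in both. In parenchyma Sftpd was at 1482, 2345 and 2884 CPM in PBS.CS, against 705, 881 and 1282 CPM in PBS.AIR, and Abca3 was at 388, 455 and 564 CPM against 258, 303 and 360 CPM. For both, all 10 PBS.CS libraries were above all PBS.AIR libraries, 2 of 9 where 5.16% of all genes were higher without overlap. The log2 fold change was 1.31 ± 0.15 for Sftpd (limma-voom adjusted p = 1.5e-13) and 0.65 ± 0.10 for Abca3 (adjusted p = 1.6e-07). Sftpa1 (0.58 ± 0.15, adjusted p = 0.0011) and Lamp3 (0.56 ± 0.18, adjusted p = 0.0073) rose too, each with 9 of 10 libraries above every control, and 17.7% of all genes rose. No member fell. Sftpc was at 11508 to 18895 CPM in PBS.CS and 12008 to 21588 CPM in PBS.AIR (-0.18, 95% interval -0.56 to 0.19), and Sftpb (0.05), Etv5 (0.03) and Napsa (0.16) did not pass either. Slc34a2 was nearest to the threshold (0.37 ± 0.17, adjusted p = 0.078), with 8 of 10 smoke libraries above every control, and passed with sample quality weights (0.39, adjusted p = 0.0036) and in a fit of the parenchyma libraries alone (0.36, adjusted p = 1.9e-04).

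In airway smoke raised Sftpd (0.94 ± 0.14, limma-voom adjusted p = 6.4e-08), Lamp3 (0.76 ± 0.16, adjusted p = 2.6e-04), Abca3 (0.65 ± 0.10, adjusted p = 3.6e-07) and Slc34a2 (0.57 ± 0.16, adjusted p = 0.0063), where 7.66% of all genes rose. Slc34a2 did not pass in a fit of the airway libraries alone (0.57, adjusted p = 0.061). Abca3 ran from 240 to 484 CPM against 180.9 to 281.7 CPM in PBS.AIR, with 9 of 10 smoke libraries above every control. Napsa (0.35 ± 0.16), Etv5 (0.29 ± 0.14), Sftpa1 (0.25 ± 0.14), Sftpb (0.16 ± 0.15) and Sftpc (0.01 ± 0.17) did not pass. The smoke effect did not differ between the tissues for any of the 9 genes by limma-voom, edgeR or DESeq2, and none had an unadjusted p under 0.05 (3.04% of genes were higher and 0.685% lower in parenchyma). Its interval for Sftpd was -0.03 to 0.77 and for Sftpa1 -0.08 to 0.73 on the log2 scale.

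In smoke-exposed parenchyma 17.7% of all genes tested rose by limma-voom. All 10 genes of the GM-CSF and clearance list rose there, led by the macrophage receptor gene Marco (2.87 ± 0.31) and by Csf2 (2.12 ± 0.22), which encodes GM-CSF itself. Of 15 other type II markers 10 rose and none fell, with Lcn2 at 3.69 ± 0.24, Chil1 at 1.97 ± 0.17 and the type II chemokine gene Cxcl15 at 1.49 ± 0.20. In the phospholipid list 6 of 20 rose and none fell, with Fabp5 at 1.55 ± 0.18 and the desaturase gene Scd1 at 1.29 ± 0.26. In the FGF list 7 of 12 were lower and 1 higher, with Fgf7 at -0.67 ± 0.10 and the receptor gene Fgfr2 at 0.47 ± 0.10. The share of all genes that fell with smoke in parenchyma is not given here, so counts of falls stand without it. Among type I markers 2 of 15 fell and none rose (8206 to 11574 CPM in sum against 11115 to 12706), and 7 of 10 macrophage and monocyte markers rose (836.6 to 1099 CPM against 467.1 to 648.6). Club cell markers rose for 6 of 10 and fell for none, at 25758 to 73617 CPM in sum against 20617 to 36661 CPM. Their part in the members' values was not tested.

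With HDM and smoke together, compared with the same PBS.AIR libraries, 8 of 9 genes rose in airway (25.2% of all genes by limma-voom), all but Sftpc (0.17 ± 0.18), and 4 rose (25.4%) and Sftpc fell (22%) in parenchyma. In airway Sftpd was 1.42 ± 0.14 higher, Lamp3 1.30 ± 0.17, Slc34a2 1.17 ± 0.16 and Abca3 0.93 ± 0.10 on the log2 scale, and Sftpb 0.43 ± 0.15 (adjusted p = 0.012), which did not pass without library X5 (0.34, adjusted p = 0.053), by DESeq2 (0.32, adjusted p = 0.061) or in a fit of the airway libraries alone (0.43, adjusted p = 0.053). In parenchyma Sftpd was at 1545, 2147 and 2851 CPM, above every PBS.AIR library (1.28 ± 0.15, adjusted p = 1.5e-13), as were all Abca3 values, 2 of 9 where 9.19% of all genes were higher without overlap. Sftpc was at 8530, 10980 and 12569 CPM, with 9 of 10 libraries below every PBS.AIR library (-0.54 ± 0.19, adjusted p = 0.011). Abca3 (0.63 ± 0.10), Sftpa1 (0.52 ± 0.15) and Lamp3 (0.40 ± 0.18, adjusted p = 0.049) also rose, Lamp3 falling short with all libraries in 1 fit (0.36, adjusted p = 0.13), with another scaling and with other filters. Slc34a2 (0.35 ± 0.17, adjusted p = 0.080) did not pass but did in a fit of the parenchyma libraries alone (0.34, adjusted p = 2.8e-04), and Sftpb (-0.14 ± 0.15), Etv5 (0.03 ± 0.15) and Napsa (0.01 ± 0.17) did not pass.

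The combined effect was below the sum of the single effects of HDM and smoke for several genes, by a test of the HDM by smoke interaction in limma-voom. In parenchyma the interaction was -1.40 ± 0.21 for Sftpd (adjusted p = 2.4e-08), -0.81 ± 0.21 for Sftpa1 (adjusted p = 0.0012), -0.68 ± 0.25 for Lamp3 (adjusted p = 0.026) and -0.49 ± 0.15 for Abca3 (adjusted p = 0.0055), 4 of 9 where 18.7% of all genes were lower. The medians of Sftpd show the pattern, at 881 CPM in PBS.AIR, 2293 in HDM.AIR, 2345 in PBS.CS and 2147 in HDM.CS parenchyma, and the ranges of the 3 exposed groups overlapped. In airway Sftpd (-0.91 ± 0.21, adjusted p = 5.2e-04), Lamp3 (-0.74 ± 0.24, adjusted p = 0.020) and Abca3 (-0.46 ± 0.15, adjusted p = 0.018) were lower, 3 of 9 where 11.4% of genes were. Without the libraries that stood apart Lamp3 in airway did not pass (-0.54, adjusted p = 0.081). In a fit of the airway libraries alone neither Lamp3 (-0.74, adjusted p = 0.098) nor Abca3 (-0.46, adjusted p = 0.063) passed, which left Sftpd. Slc34a2 in airway (-0.58 ± 0.23, adjusted p = 0.065) did not pass. Neither Sftpb nor Sftpc passed in either tissue, and the interval for Sftpc in parenchyma was -0.29 to 0.75. The plot of exposure effects sets these values side by side.

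**Figure D4:**
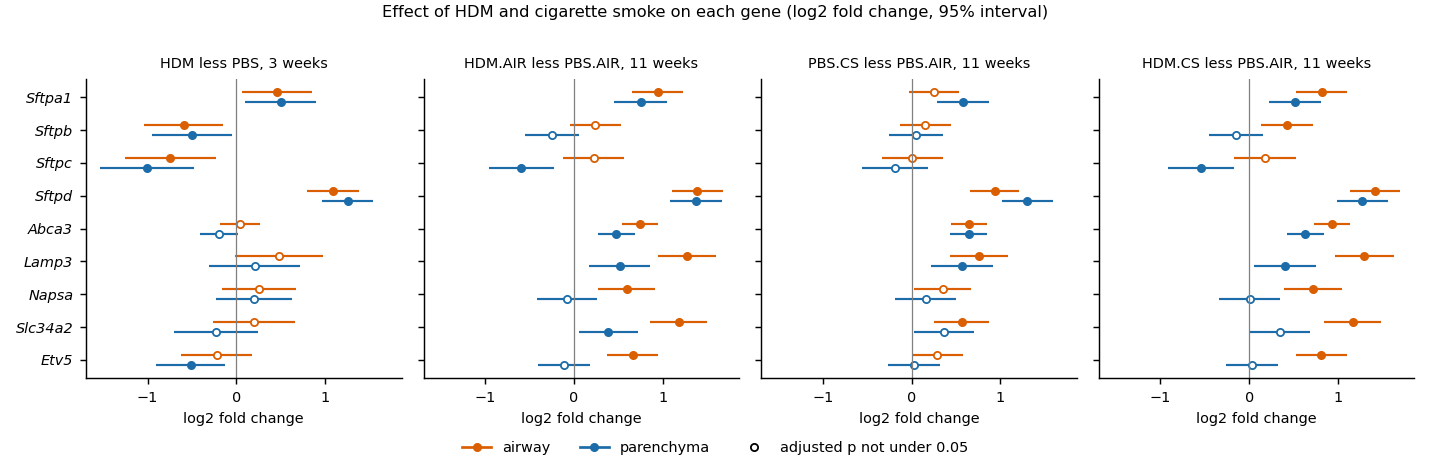
Log2 fold changes of the 9 genes with 95% intervals (limma-voom), in airway and parenchyma, for HDM at 3 weeks and for HDM, smoke and both at 11 weeks against the controls of that week; open points did not reach an adjusted p under 0.05. Sftpd is higher in every panel, from 0.94 to 1.42, while Sftpc lies below 0 in parenchyma in all 4, from -1.01 to -0.18; the 3 comparisons at 11 weeks share their PBS.AIR libraries.

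Dexamethasone in week 11 was compared with no treatment within each of the 4 exposures and each tissue. In PBS.AIR parenchyma 8 of the 9 genes rose. Sftpb was at 1837, 2129 and 2433 CPM without and at 3270, 3652 and 3951 CPM with dexamethasone. Lamp3 was at 471, 552 and 699 CPM without and at 883, 1068 and 1257 CPM with it, and Sftpd at 705, 881 and 1282 CPM and at 1747, 1809 and 2062 CPM. For these 3 genes the ranges did not overlap, and the same held for Sftpa1, Abca3, Napsa and Slc34a2, so that 7 of 9 genes were without overlap where 2.14% of all genes were higher without overlap. By limma-voom 10.6% of all genes rose, and the members had log2 fold changes of 0.99 ± 0.14 for Sftpd (adjusted p = 1.9e-08), 0.92 ± 0.18 for Lamp3 (adjusted p = 2.9e-05), 0.85 ± 0.11 for Abca3 (adjusted p = 1.0e-10) and 0.82 ± 0.15 for Sftpa1 (adjusted p = 8.4e-06). Slc34a2 (0.78 ± 0.17), Sftpb (0.76 ± 0.16), Napsa (0.66 ± 0.18) and Etv5 (0.46 ± 0.15, adjusted p = 0.018) followed. Sftpc was the exception, at 12008 to 21588 CPM without and 18047 to 24981 CPM with the drug (0.43 ± 0.19, adjusted p = 0.098). Sftpc did pass with sample quality weights (0.44, adjusted p = 0.009) and in a fit of the parenchyma libraries alone (0.42, adjusted p = 0.002).

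In PBS.AIR airway the same 8 genes rose by limma-voom (8.03% of all genes), from 0.56 ± 0.14 for Sftpa1 to 1.03 ± 0.16 for Slc34a2, with Sftpc at 0.48 ± 0.18 (adjusted p = 0.055). Abca3 was at 180.9, 231.5 and 281.7 CPM without and at 318, 386 and 565 CPM with dexamethasone, and was the only 1 of the 9 without overlap there, where 0.225% of all genes were higher without overlap. The median over the 9 genes was 0.71 in airway and 0.78 in parenchyma, beside 0.01 and -0.01 for all genes.

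In HDM.AIR mice Sftpb, Sftpc, Abca3, Napsa, Slc34a2 and Etv5 rose in both tissues, and the lectin genes did not pass the limma-voom test in either. Under alternative settings Sftpa1 did pass, with sample quality weights in airway (0.36, adjusted p = 0.018). It also passed in parenchyma in a fit of the parenchyma libraries alone (0.28, adjusted p = 0.014). In parenchyma Sftpb was at 1395, 1775 and 2065 CPM without and at 2393, 2900 and 3639 CPM with dexamethasone, and Napsa, the protease gene, at 258, 343 and 411 CPM and at 421, 490 and 671 CPM. Neither pair of ranges overlapped, nor did those of Abca3, Slc34a2 and Etv5, making 5 of 9 where 0.674% of all genes were higher without overlap. By limma-voom 6 of 9 rose (12.2%), namely Sftpb (0.75 ± 0.15, adjusted p = 4.7e-05), Slc34a2 (0.64 ± 0.18), Sftpc (0.63 ± 0.18, adjusted p = 0.0048), Napsa (0.58 ± 0.17), Etv5 (0.58 ± 0.15) and Abca3 (0.55 ± 0.11). Sftpd was at 1861 to 3061 CPM without and 2022 to 3685 CPM with the drug (0.18, 95% interval -0.13 to 0.48). In airway 7 rose (12.5%), all but Sftpa1 (0.34 ± 0.15) and Sftpd (0.27 ± 0.15), Abca3 (0.46 ± 0.11) being the only member without overlap (0.789% of all genes). Without the libraries that stood apart both lectin genes passed there, Sftpa1 at 0.42 (adjusted p = 0.019) and Sftpd at 0.37 (adjusted p = 0.041), and Sftpa1 passed without library X109 alone (0.41, adjusted p = 0.034). Lamp3 (0.50 ± 0.18, adjusted p = 0.023) did not pass in a fit of the airway libraries alone (adjusted p = 0.10). In parenchyma Lamp3 was near the threshold (0.44 ± 0.18, adjusted p = 0.059). There it passed by edgeR (0.45, adjusted p = 0.033), by DESeq2 (0.45, adjusted p = 0.024) and with sample quality weights (0.42, adjusted p = 0.038). It also passed in a fit of the parenchyma libraries alone (0.44, adjusted p = 1.4e-04).

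In PBS.CS mice 7 genes rose in parenchyma (7.39% of all genes by limma-voom) and 6 in airway (4.68%), the latter being Sftpb (0.76 ± 0.15), Slc34a2 (0.63 ± 0.17), Napsa (0.56 ± 0.17), Etv5 (0.55 ± 0.15), Abca3 (0.51 ± 0.11) and Sftpa1 (0.43 ± 0.15). In a fit of the airway libraries alone the 6 became 2, Sftpb and Abca3, and Etv5 (adjusted p = 0.054), Slc34a2 (adjusted p = 0.057), Napsa (adjusted p = 0.095) and Sftpa1 (adjusted p = 0.14) did not pass. Sftpb rose by 0.81 ± 0.16 in parenchyma, from 1790, 2248 and 2567 CPM to 2607, 3919 and 5428 CPM, and was the only member without overlap (0.427% of all genes). Abca3 (0.63 ± 0.11), Napsa (0.61 ± 0.18), Slc34a2 (0.61 ± 0.18) and Etv5 (0.56 ± 0.15) each had 9 of 10 treated libraries above every untreated one. Lamp3 (0.52 ± 0.19, adjusted p = 0.037) did not pass without library X173 (0.50, adjusted p = 0.063), and Sftpa1 (0.44 ± 0.16, adjusted p = 0.040) was near the threshold. In airway Lamp3 was 0.47 ± 0.17 higher (adjusted p = 0.057) and passed without library X155 (0.61, adjusted p = 0.0080). With HDM and smoke together 3 genes rose in parenchyma (2.46% of genes), Sftpb (0.71 ± 0.16, adjusted p = 8.3e-04), Napsa (0.65 ± 0.18, adjusted p = 0.0097) and Abca3 (0.32 ± 0.11, adjusted p = 0.046), and 2 in airway (2.25%), Sftpb (0.60 ± 0.16) and Napsa (0.52 ± 0.17). Abca3 in parenchyma did not pass without library X160 (0.30, adjusted p = 0.081). The count of 3 was 6 by DESeq2 and 8 in a fit of the parenchyma libraries alone, as it was with sample quality weights. In airway the count of 2 was 6 with those weights, and Etv5 (0.38 ± 0.15, adjusted p = 0.096) passed without the libraries that stood apart (0.40, adjusted p = 0.042). Etv5 had no overlap in parenchyma (0.247% of all genes), with all 10 treated libraries, at 147.1 to 205.4 CPM, above every untreated one. It did not pass (0.40 ± 0.15, adjusted p = 0.087), but did by DESeq2 (0.42, adjusted p = 0.043) and with sample quality weights (0.36, adjusted p = 0.0094). In a fit of the parenchyma libraries alone it passed as well (0.40, adjusted p = 2.9e-04).

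Over the 8 dexamethasone comparisons no member fell by limma-voom, and every log2 fold change of the 9 genes was above 0. Sftpb and Napsa, the SP-B precursor and a protease that helps to cut it, rose in all 8, with log2 fold changes of 0.60 to 0.87 (median 0.76) for Sftpb and of 0.52 to 0.71 (median 0.61) for Napsa. Napsa did not pass in HDM.CS airway with all libraries in 1 fit (0.53, adjusted p = 0.055), nor in fits of the airway libraries alone in HDM.CS (0.52, adjusted p = 0.17) and in PBS.CS (0.56, adjusted p = 0.095). Abca3 rose in 7, Slc34a2 and Etv5 in 6, Sftpa1 and Lamp3 in 4, and Sftpc and Sftpd in 2 each. Such counts rest on the threshold and move with the tool. Lamp3 also passed by edgeR and by DESeq2 in PBS.CS airway (adjusted p = 0.033 and 0.028) and in HDM.AIR parenchyma (0.033 and 0.024). The same held in HDM.CS parenchyma (0.042 and 0.024). The range was widest for Sftpd, from 0.05 in HDM.CS airway to 0.99 in PBS.AIR parenchyma.

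Whether the dexamethasone effect differed between exposures was tested after these values were seen. In parenchyma the effect on Sftpd was smaller with HDM.AIR than with PBS.AIR (-0.81 ± 0.21, limma-voom adjusted p = 0.0051; 6.38% of all genes had a lower effect). The differences for the other two exposures were close in size but did not pass, at -0.67 ± 0.21 with PBS.CS (adjusted p = 0.056) and -0.72 ± 0.21 with HDM.CS (adjusted p = 0.060), and both passed with sample quality weights (adjusted p = 0.0061 and 8.5e-05). Without library X160 that of HDM.CS passed as well (-0.79, adjusted p = 0.036), as it did without the libraries that stood apart (-0.81, adjusted p = 0.019), where Abca3 with HDM.CS in parenchyma did so too (-0.55, adjusted p = 0.034, against -0.53 and 0.054 with no library left out). In airway the effect on Abca3 was smaller with HDM.CS than with PBS.AIR (-0.66 ± 0.15, adjusted p = 0.016; 0.307%). The difference for Abca3 in airway did not pass with sample quality weights (-0.46, adjusted p = 0.084) or in a fit of the airway libraries alone (-0.66, adjusted p = 0.11). For Sftpb the differences were between -0.27 and 0.05 in the 6 tests, and the interval for HDM.AIR parenchyma was -0.45 to 0.43. The plot of dexamethasone effects shows Sftpb and Napsa right of 0 in all panels, and Sftpd furthest right in PBS.AIR parenchyma.

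**Figure D5:**
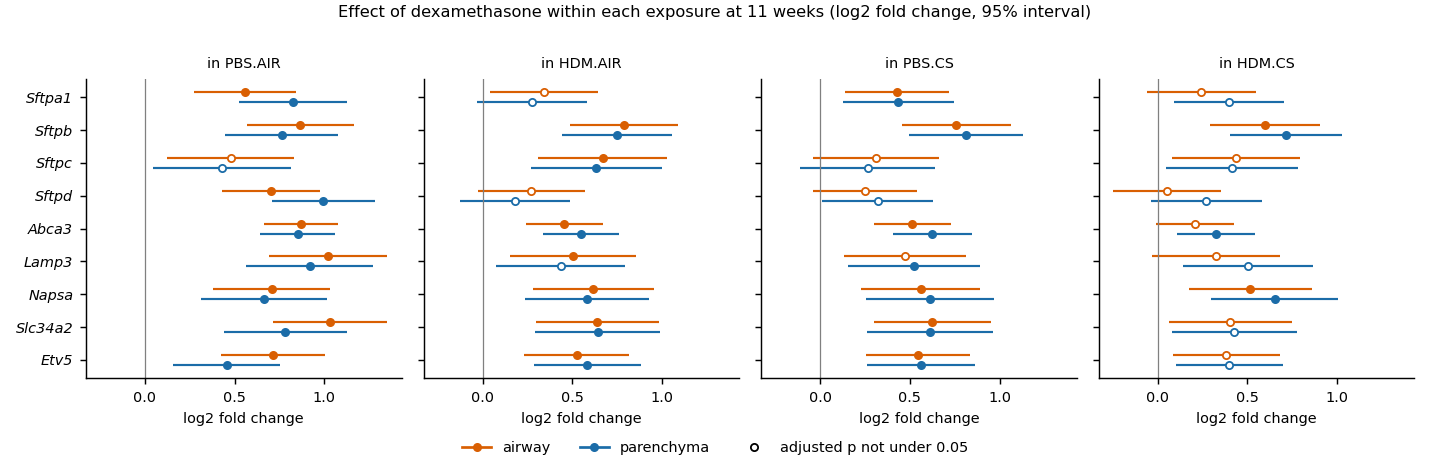
Log2 fold changes of the 9 genes with dexamethasone, with 95% intervals (limma-voom), in airway and parenchyma, within each of the 4 exposures at 11 weeks; open points did not reach an adjusted p under 0.05. All points lie to the right of 0, with Sftpb at 0.60 to 0.87 throughout and Sftpd at 0.99 in PBS.AIR parenchyma and at 0.18 to 0.32 in the parenchyma of the other 3 exposures.

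The counts from the lists are to be read beside the shares of all genes that rose with dexamethasone by limma-voom. In parenchyma these were 10.6% in PBS.AIR, 12.2% in HDM.AIR, 7.39% in PBS.CS and 2.46% in HDM.CS. Of the 15 other type II markers 12 rose and 1 fell with dexamethasone in PBS.AIR parenchyma by limma-voom, against 6 and 2 in HDM.AIR, 2 and 1 in PBS.CS and 1 and 1 in HDM.CS parenchyma. In PBS.AIR they were led by Lcn2 (1.72 ± 0.22), Cxcl15 (1.64 ± 0.21) and Acoxl (1.31 ± 0.19). In the phospholipid list 9 of 20 rose there, 7 in HDM.AIR, 6 in PBS.CS and 1 in HDM.CS parenchyma, and none fell, with PBS.AIR values of 1.23 ± 0.17 for Fabp5, 0.88 ± 0.14 for the fatty acid elongase gene Elovl1 and 0.79 ± 0.20 for the carboxylase gene Acaca. Of the processing list 4 of 10 rose and 1 fell in PBS.AIR, and 4, 3 and 1 rose and none fell in HDM.AIR, PBS.CS and HDM.CS parenchyma, and in PBS.AIR the cholesterol carrier gene Npc2 rose by 0.76 ± 0.12 and Ctsh, a protease that also cuts the precursors of SP-B and SP-C, by 0.74 ± 0.13. Of 14 alveolar transcription factors 5 rose and 1 fell in PBS.AIR, 11 rose and none fell in HDM.AIR, 5 rose and 1 fell in PBS.CS and 1 rose and none fell in HDM.CS parenchyma. Those that rose with HDM.AIR included Foxp2 (0.57 ± 0.14), Foxa2 (0.55 ± 0.11) and Nkx2-1 (0.53 ± 0.11), and the lipid acyltransferase gene Lpcat1 rose there by 0.69 ± 0.16. In the FGF list 6 of 12 rose and 2 fell in HDM.AIR, 1 rose and 4 fell in PBS.AIR, 1 rose and none fell in PBS.CS and none passed in HDM.CS parenchyma, with Etv4 (-1.89 ± 0.33 in HDM.AIR) opposite to Etv5.

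Other cells moved with the drug as well. Lymphocyte markers fell for 7 of 10 in PBS.AIR parenchyma, from 105.1 to 343.3 CPM in sum to 31.29 to 144.1 CPM, and for 10 of 10 in HDM.AIR parenchyma, from 2492 to 11994 CPM to 998.7 to 3335 CPM. The share of all genes that fell with the drug is not given here. Type I markers rose for 1 of 15 in PBS.AIR parenchyma (10.6% of all genes) and for 8 in HDM.AIR parenchyma (12.2%). In airway they rose for 10 in PBS.AIR (8.03%) and for 9 in HDM.AIR (12.5%), and none fell in these comparisons. Their summed level in HDM.AIR parenchyma went from 4442 to 7469 CPM to 7372 to 8918 CPM. The share of counts in the 9 genes had a median of 2.49% in PBS.AIR and 3.76% in PBS.AIR.DEX parenchyma. In PBS.AIR parenchyma 5 of 10 club cell markers rose (10.6% of all genes), with sums of 20617 to 36661 CPM without and 27383 to 50512 CPM with the drug. The part of other cells in these results was not tested.

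Genes with the most similar pattern were found by the correlation of each gene's log2 CPM, centred within tissue, with the mean of the 9 genes. Over the parenchyma libraries, 1 more in number than those of airway, the highest Pearson r were 0.947 for Mlc1, 0.894 for Retsat, 0.883 for Rab25, 0.882 for Ang and 0.876 for Elovl1, followed by Pip5k1b, Gnpat, Acot7, Zdhhc3 and Elmo3, down to 0.849. Over the 101 airway libraries they were 0.985 for Mlc1, 0.949 for Dram1, 0.945 for Slc26a9, 0.938 for Elovl1 and 0.937 for Lrp2 and Lpcat1, followed by Cers2, Zdhhc3, Sptlc2 and Tmem116, down to 0.924. Mlc1, Elovl1 and Zdhhc3 were in both sets. Mlc1 and Dram1 were also in the list of other type II markers, and Elovl1 and Lpcat1 in the phospholipid list. The libraries share their tissue content and exposures, and the correlations are a description without a test.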

How the data were processed

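RNA of airway and parenchyma was sequenced by the authors as 100 bp single reads and processed against mm10 with annotation M21. Their notes list bcl2fastq 2.20.0.422, STAR 2.5.1b, RSEM 1.2.31 and kallisto 0.44.0; which quantifier made the table, and the strand setting, are not given in the sources used here. The authors deposited estimated counts per gene (20.3% of the non-zero values are not whole), which were rounded. Of 43346 gene rows, 42462 matched GENCODE M21 by ID without its version, and the 9 genes' ID versions are older than M21's.

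Counts were scaled by TMM in edgeR 4.0.16 and tested with limma-voom (limma 3.58.1, R 4.3.3) with 1 mean per group, in separate fits of the 43 libraries of week 3 and the 160 of week 11 and in a fit of all libraries for differences between weeks. A gene was kept where 9 or more libraries reached the CPM that 10 counts make in a library of median size. P-values were adjusted by Benjamini-Hochberg over all genes tested, and an adjusted p under 0.05 passed. Errors beside log2 fold changes are standard errors, with 95% intervals where given. RPKM used exon-union lengths. Of 31 comparisons, 25 were planned and 6 added after seeing the data. As alternatives, DESeq2 1.42.0 and the quasi-likelihood test of edgeR were run, with other filters and scaling, sample quality weights, other sets of libraries and leaving out libraries that stood apart. The fits were tested on simulated data. Tables were made with Python 3.11.15.

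The members and lists were chosen with earlier results of these data known. All members were tested in every comparison, though not each is named in each; from each list the text draws on up to 3 genes with the largest absolute change among those that passed, and on the 10 protein-coding genes most alike per tissue. No 2 libraries of a group agreed within counting noise (smallest mean chi-square per gene 9.62).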

Additional observations from a re-analysis of the deposited data

Results flagged for a closer look

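Over the 9 genes in each of 18 groups of 4 to 10 libraries, 11 combinations of gene and group held a library far from the others by Dixon's criterion, where chance gives about 1 in 20 of all such combinations. In HDM airway at 3 weeks library X63 was low for Sftpa1 (1054 CPM), Sftpc (1350 CPM) and Lamp3 (93.17 CPM). In HDM.AIR airway at 11 weeks library X109 was high for Sftpa1 (7243 CPM) and Sftpd (2991 CPM). In PBS.CS parenchyma X173 was high for Sftpc (18895 CPM) and X94 low for Sftpd (1482 CPM). In PBS.CS.DEX parenchyma X176 was low for Lamp3 (723.8 CPM) and Etv5 (117.7 CPM), and in HDM.CS.DEX parenchyma X160 was high for Sftpb (4997 CPM) and Sftpd (4631 CPM).

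Effects that differed between groups by a limma-voom test of the difference are given as log2 values. The HDM by smoke interaction was -0.91 for Sftpd, -0.46 for Abca3 and -0.74 for Lamp3 in airway, and -0.81 for Sftpa1, -1.40 for Sftpd, -0.49 for Abca3 and -0.68 for Lamp3 in parenchyma. The HDM effect at 11 weeks in parenchyma less that in airway was -0.81 for Sftpc, -0.76 for Lamp3, -0.67 for Napsa, -0.79 for Slc34a2 and -0.77 for Etv5. The HDM effect at 11 weeks less that at 3 weeks was 0.77 for Sftpb, 0.90 for Sftpc, 0.64 for Abca3, 0.73 for Lamp3, 0.92 for Slc34a2 and 0.82 for Etv5 in airway, and 0.55 for Abca3 in parenchyma. The dexamethasone effect less that in PBS.AIR was -0.66 for Abca3 with HDM.CS in airway and -0.81 for Sftpd with HDM.AIR in parenchyma, both tested after the values were seen.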

How the results depend on the processing

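Over 279 results of single members, no alternative reversed a direction that had passed. The results lost and gained were 2 and 4 by edgeR, 3 and 9 by DESeq2, 2 and 0 with DESeq2 size factors, 6 and 0 with no filter, 2 and 3 with a filter at 10 CPM, 7 and 26 with quality weights, and 9 and 9 without the libraries that stood apart. With all libraries in 1 fit, 8 were lost and 1 gained of 261, and with the libraries of 1 tissue alone 17 were lost and 23 gained of 234. The causes of these changes were not tested.

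Counts of members that moved by over 1.5 times are given next as the reported count and the count under the alternative. With 1 tissue alone, the HDM effect at 3 weeks went from 2 to 1 higher and from 2 to 0 lower in airway and from 2 to 4 higher in parenchyma. The same fit took the HDM effect at 11 weeks in parenchyma from 1 to 2 lower, the airway interaction of HDM and smoke from 3 to 1, and dexamethasone from 6 to 2 in PBS.CS airway, from 2 to 1 in HDM.CS airway and from 3 to 8 in HDM.CS parenchyma. It took the week difference from 6 to 3 in airway and, in parenchyma, from 1 to 3 higher and from 0 to 1 lower. The difference of dexamethasone effects from PBS.AIR went in that fit from 1 to 0 for HDM.CS airway, from 1 to 3 for HDM.AIR parenchyma, from 0 to 1 for PBS.CS parenchyma and from 0 to 2 for HDM.CS parenchyma. With sample quality weights, dexamethasone went from 2 to 6 in HDM.CS airway and from 3 to 8 in HDM.CS parenchyma, the tissue difference of HDM at 11 weeks from 5 to 1, the parenchyma week difference from 1 to 2, and the differences of dexamethasone effects from 1 to 0 (HDM.CS airway), 1 to 2 (HDM.AIR parenchyma), 0 to 1 (PBS.CS parenchyma) and 0 to 3 (HDM.CS parenchyma). By DESeq2, dexamethasone in HDM.CS parenchyma went from 3 to 6, and the dexamethasone differences for PBS.CS and HDM.CS parenchyma each from 0 to 1, as they did with a filter at 10 CPM. With no filter, members lower with HDM in parenchyma at 3 weeks went from 3 to 1, and with all libraries dexamethasone in HDM.CS airway went from 2 to 1. Without the libraries that stood apart, the tissue difference of HDM at 11 weeks went from 5 to 0, the parenchyma week difference from 1 to 2 and the dexamethasone difference for HDM.CS parenchyma from 0 to 2. Without X63 the HDM effect at 3 weeks in airway went from 2 to 5 higher and from 2 to 1 lower, without X81 from 2 to 1 higher, and without X160 the dexamethasone difference for HDM.CS parenchyma went from 0 to 1.

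The median of all genes moved by over 0.1 (log2) in 4 cases, by 0.11 with no filter for HDM at 3 weeks in airway, 0.105 with no filter for the dexamethasone difference of HDM.AIR parenchyma, and 0.11 with a filter at 10 CPM and with 1 tissue alone for HDM at 3 weeks in parenchyma. No paired analysis was possible because the labels and library codes do not tie libraries of different groups or tissues to a shared animal, litter or batch. Depth did not limit the members, whose lowest count was 588.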
